A study of Mus musculus with 9 samples.

Results

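Neurotrophic factors are secreted proteins that keep neurons alive and guide their axons, and they are read here through 9 genes of 22013 in the deposited table. The genes were chosen by symbol: the ligands Bdnf, Ntf3, Gdnf and Artn and the receptors Ngfr, Ntrk2, Ntrk3, Gfra1 and Gfra2. All 9 are rows of the table. The libraries hold RNA of mouse primary cells from the spinal meninges, labelled as fibroblasts and described as fresh and untreated, with 3 libraries for each segment, named C, T and L. The letters are not spelled out in the labels, and neither strain nor age is given there. The series sets out to compare fibroblasts between segments with scarring after spinal cord injury in view, but no injured sample was analysed here.

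The neurotrophins Bdnf and Ntf3 act through Trk tyrosine kinases (Ntrk2, which encodes TrkB, mainly for the first, and Ntrk3, which encodes TrkC, for the second) and share the receptor p75, encoded by Ngfr, which binds mature and unprocessed forms. Gdnf and Artn belong to the GDNF family, whose members bind a lipid-anchored co-receptor of the GFRα type and signal through the kinase Ret. Outside the nervous system such factors are made by fibroblasts, muscle and glia, and p75 is found on Schwann cells and on some perivascular and meningeal fibroblasts.

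Between 15652558 and 25204310 estimated counts were recorded per library, and 12057 to 12305 genes reached a TPM (transcript abundance corrected for length and scaled to the same sum in every library) of 1. All 9 pairs of replicates differed beyond sampling noise (chi-square over its degrees of freedom, 3.77 to 20.4). L replicate 3 was assigned by its title, since its description carries the column name of L replicate 2. Whether replicates are separate animals or cultures is not stated, so the p-values rest on the spread among these libraries, which may be technical. The fibroblast markers measured were Col1a1, Col1a2, Col3a1, Pdgfra, Dcn, Lum, Fn1 and Vim. These 8 summed to 12770 to 13170 TPM in C, 13500 to 14260 in T and 15920 to 16360 in L. Most of the sum came from Fn1 and Vim, at 4364 and 5154 TPM on average in C, where Lum averaged 2.98. The 8 did not move together. Pdgfra averaged 3.54, 23.3 and 7.09 TPM in C, T and L, and Vim 5154, 3455 and 4061. In such bulk libraries, fewer cells of a kind and less RNA per cell cannot be told apart.

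The stretches before the start sites of Ngfr, Gdnf and Artn are shown because these genes, a shared receptor and a pair of ligands, were each lower in T and in L than in C. Each runs over 250 bases up to the RefSeq start, from the build GRCm38.p6, 5′ to 3′ on the gene's strand. Capitals mark motifs found on either strand, and no matches overlap in these 3 windows. The Ngfr window is chr11:95587699-95587948 on the minus strand, that of the first Gdnf start is chr15:7809798-7810047 on the plus strand, and that of Artn is chr4:117929764-117930013 on the minus strand.
Ngfr: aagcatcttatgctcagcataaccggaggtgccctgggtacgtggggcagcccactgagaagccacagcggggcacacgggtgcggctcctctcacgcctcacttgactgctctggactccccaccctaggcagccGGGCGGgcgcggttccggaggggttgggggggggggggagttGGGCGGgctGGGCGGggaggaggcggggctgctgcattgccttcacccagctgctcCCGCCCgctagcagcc
Gdnf: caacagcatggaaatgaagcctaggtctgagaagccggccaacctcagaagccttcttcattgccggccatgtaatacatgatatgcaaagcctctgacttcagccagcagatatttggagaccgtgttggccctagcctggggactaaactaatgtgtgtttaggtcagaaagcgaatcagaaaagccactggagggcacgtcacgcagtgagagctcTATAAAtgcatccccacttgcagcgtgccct
Artn: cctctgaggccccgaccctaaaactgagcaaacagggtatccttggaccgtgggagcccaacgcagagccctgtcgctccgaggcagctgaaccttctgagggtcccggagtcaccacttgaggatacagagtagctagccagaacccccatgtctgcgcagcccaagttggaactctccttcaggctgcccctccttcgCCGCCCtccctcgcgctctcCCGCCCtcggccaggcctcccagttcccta
The Ngfr window held 4 GC boxes in 70.4% G and C, the Artn window 2 in 63.6%, and the Gdnf window a TATA box 31 bases before the start with 50.8% G and C. The GC box was searched as GGGCGG, which 33.0% of 32536 such windows held. The TATA box was searched as TATAAA, held by 12.3% of them. Neither the AP-1 site TGANTCA, held by 6.7% of all windows, nor the cyclic AMP response element TGACGTCA, held by 1.6%, was found in the 3 windows shown. Promoter sequences were matched for 7 of the 9 genes, all but Ntrk3 and Gfra2. Ntf3, Ntrk2 and Gfra1 were also lower in T and in L than in C, and their windows are not shown. Those of Ntrk2, Gfra1 and the second Gdnf start held none of these motifs, and each Ntf3 window held 1 GC box.

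The 9 genes covered a wide range of levels, and their order changed between segments. In C, Ngfr stood first at 98.8 ± 1.86 TPM and Bdnf second at 41.4 ± 4.63 (SD, n = 3). In T, Bdnf led at 49.7 ± 5.83 TPM, followed by Ntrk3 at 27.1 ± 1.06 and Ngfr at 16.7 ± 1.55. In L, Ngfr at 48.1 ± 2.44 TPM and Bdnf at 46.05 ± 4.90 had overlapping values. The next 3 places in C were taken by Gfra1, Gdnf and Ntrk3, the first pair of which overlapped, and Ntrk3 overlapped Artn. In T, Gdnf and Artn overlapped, and in L, Gfra1 and Gdnf did. Ntf3, Ntrk2 and Gfra2 were the lowest 3 in every segment, and Ntf3 overlapped Ntrk2 in C and Gfra2 in T and L.

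**Figure D1:**
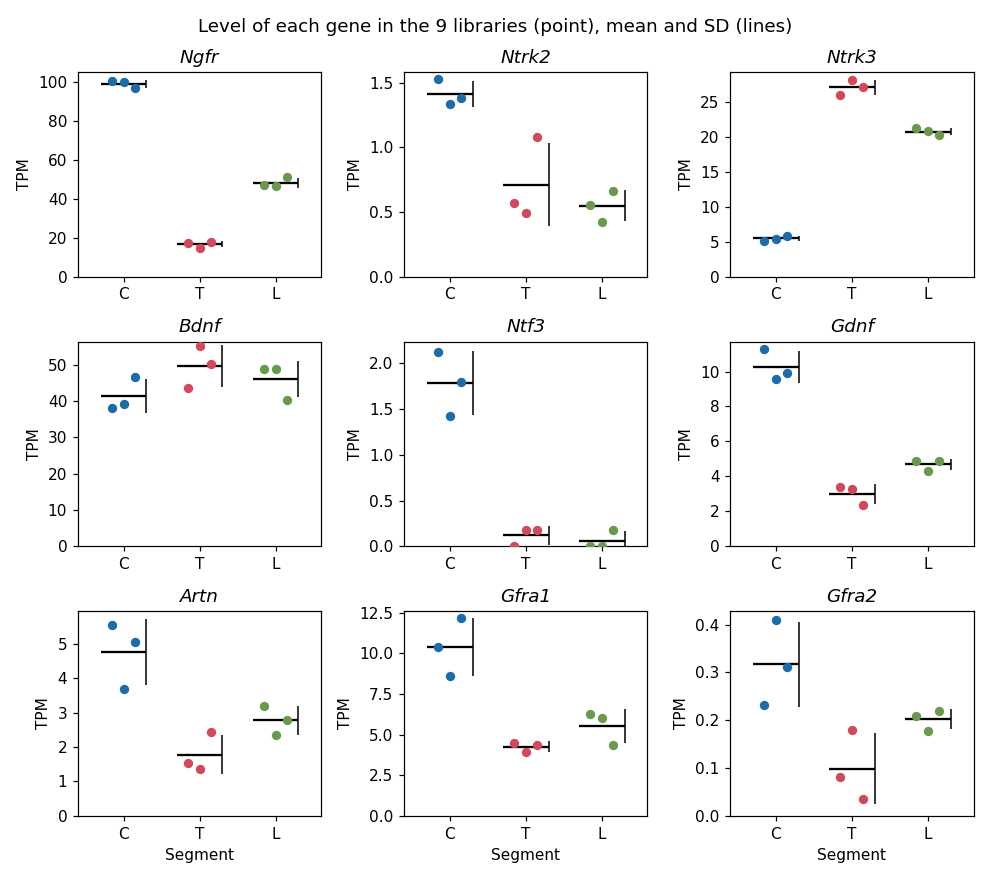
Level of each of the 9 genes in TPM (y axis, from 0) in the segments C, T and L, with 1 point per library, the mean as a horizontal line and the SD as a vertical line. Ngfr lies near 99 TPM in C and near 17 in T, Ntrk3 runs the other way, and the points of Bdnf overlap across segments.

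Counts were fitted over the whole table with edgeR's quasi-likelihood test, and the 12553 genes at 1 TPM or more in 3 or more libraries were tested. Gfra2 did not pass that filter, Ntf3 passed it only through the 3 libraries of C, where it is high, and Ntrk2 through those 3 and a single library of T, so the numbers below are a description of the 8 tested genes. At an adjusted p of 0.05, T differed from C for 7 of the 8 (6 lower and 1 higher), against 51% of all tested genes (25.2% lower and 25.8% higher). L differed from C for 7 of the 8 (6 lower and 1 higher), against 49.6% (25.2% lower and 24.4% higher). L differed from T for 4 of the 8 (3 higher and 1 lower), against 16.1% (7.88% higher and 8.21% lower). Any difference among the segments was called for 7 of the 8, against 55.9% of tested genes. In a fit of every gene with at least 1 count, T was lower than C for 7 of all 9 and higher for 1, against 20.2% and 19.9% of genes (40.1% either way). In that fit L was lower than C for 6 and higher for 1, against 20% and 18.8% (38.8% either way), and L against T had 3 higher and 1 lower, against 6.02% and 6.2% (12.2% either way). The comparisons of T and of L with C share the same C libraries, and their values are given side by side.

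**Figure D2:**
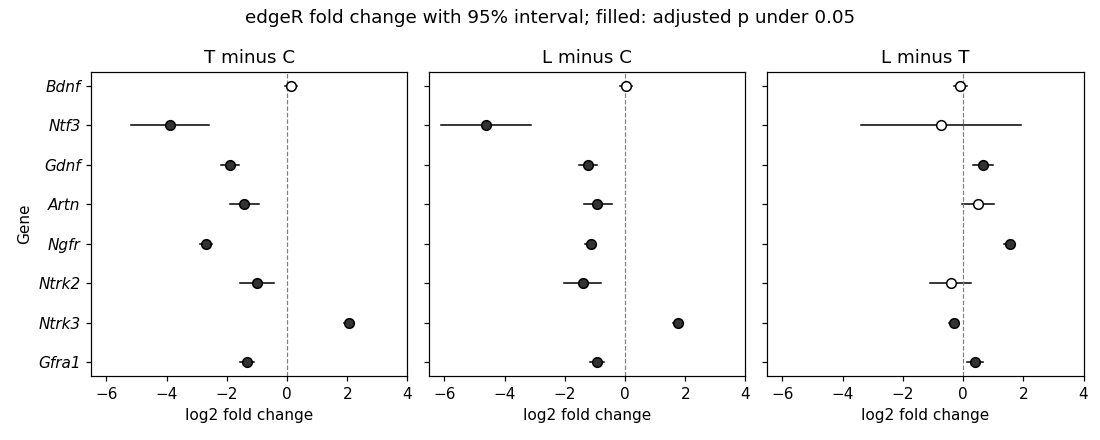
Log2 fold change of the 8 tested genes (y axis) for T and L against C and for L against T, from edgeR, with the 95% interval as a line and a filled point where the adjusted p was under 0.05. Ntrk3 is the filled point to the right of 0 in the panels against C, and the open point of Bdnf sits near 0 in all 3 panels.

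Ngfr, the p75 receptor shared by all neurotrophins, had the smallest adjusted p of the 8 for T against C and for L against T. Its level was 100.2, 99.5 and 96.7 TPM in the C libraries, 17.4, 14.9 and 17.7 in the T libraries, and 46.8, 46.5 and 50.9 in the L libraries. The segments did not overlap, with C highest, L between and T lowest. Ngfr fell 6.47-fold from C to T (log2 -2.69, SE 0.09, edgeR adjusted p = 2.19e-11) and 2.21-fold from C to L (log2 -1.14, SE 0.08, edgeR adjusted p = 7.44e-08). It rose 2.93-fold from T to L (log2 1.55, SE 0.09, edgeR adjusted p = 3.72e-08).

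Bdnf, brain-derived neurotrophic factor, was well expressed and passed in no comparison. It measured 38.2, 39.3 and 46.7 TPM in the C libraries, 43.6, 55.3 and 50.1 in the T libraries, and 48.8, 49.0 and 40.4 in the L libraries. The ranges of the segments overlapped. The fitted ratio of T to C had a 95% interval from 0.944 to 1.26 (log2 0.12, SE 0.10, edgeR adjusted p = 0.303). That of L to C ran from 0.886 to 1.18 (edgeR adjusted p = 0.791) and that of L to T from 0.813 to 1.09 (edgeR adjusted p = 0.619), so a ratio above 1.26 or below 0.813 lies outside all 3 intervals.

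Ntf3, neurotrophin-3, was low everywhere and highest in C. It had 26, 17 and 27 estimated counts in the C libraries (2.13, 1.42 and 1.79 TPM), 0, 2 and 2 in the T libraries, and 0, 0 and 2 in the L libraries. Every C library lay above every T and L library. Per library total, C was above T by a ratio of 15.3 (exact 95% counting interval 5.71 to 57.6) and above L by 27.6 (7.35 to 232). Without molecular identifiers on the reads, these intervals hold counting error alone. Without L replicate 3, L held no count and C was at least 11.55-fold higher, against a floor of 3 counts over the segment. In the fit of every gene with a count, which does not use the filter that Ntf3 passed through C, T and L were below C (edgeR adjusted p = 0.000175 and 0.000112). T and L were too low to compare with each other.

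Ntrk2 and Ntrk3, the kinase receptors of Bdnf and Ntf3, differed from C in opposite directions. Ntrk3 measured 5.14, 5.43 and 5.81 TPM in the C libraries, 26.01, 28.1 and 27.2 in the T libraries, and 21.3, 20.8 and 20.2 in the L libraries. The 3 segments did not overlap, and this was the member that rose. From C it rose 4.198-fold to T (log2 2.07, SE 0.08, edgeR adjusted p = 8.39e-11) and 3.38-fold to L (log2 1.76, SE 0.08, edgeR adjusted p = 7.06e-10). It fell 1.24-fold from T to L (log2 -0.31, SE 0.07, edgeR adjusted p = 0.00772). These folds come from counts, and the ratio of mean TPM, 4.97 for T over C, is larger. The cause of that gap was not tested.

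Ntrk2 was near the limit of the filter throughout, at 1.53, 1.34 and 1.38 TPM in the C libraries, 0.572, 0.489 and 1.08 in the T libraries, and 0.551, 0.425 and 0.665 in the L libraries. Every C library was above every library of T and L, while T and L overlapped. It fell 2.00-fold from C to T (log2 -1.0, SE 0.27, edgeR adjusted p = 0.0065) and 2.65-fold from C to L (log2 -1.41, SE 0.28, edgeR adjusted p = 0.0011). Gene totals do not separate the full-length kinase from the shorter TrkB and TrkC forms that lack it. Bdnf, Ntrk2, Ntrk3 and Gfra1 each overlap an antisense gene in GENCODE M21 (GRCm38), and since it is not given whether counting used strand, reads of both strands cannot be told apart.

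Among the GDNF family ligands, Gdnf (glial cell line-derived neurotrophic factor) and Artn (artemin) were both highest in C. Gdnf measured 11.3, 9.56 and 9.92 TPM in the C libraries, 3.39, 3.28 and 2.34 in the T libraries, and 4.88, 4.33 and 4.87 in the L libraries. The segments did not overlap, in the order C, L, T. It fell 3.73-fold from C to T (log2 -1.90, SE 0.14, edgeR adjusted p = 1e-07), fell 2.34-fold from C to L (log2 -1.23, SE 0.14, edgeR adjusted p = 5.92e-06) and rose 1.59-fold from T to L (log2 0.67, SE 0.15, edgeR adjusted p = 0.00807). Artn measured 5.54, 3.69 and 5.05 TPM in the C libraries, 1.54, 1.37 and 2.43 in the T libraries, and 3.19, 2.35 and 2.78 in the L libraries. C stood above both other segments, and T and L overlapped. Artn fell 2.67-fold from C to T (log2 -1.42, SE 0.22, edgeR adjusted p = 0.000138) and 1.89-fold from C to L (log2 -0.92, SE 0.22, edgeR adjusted p = 0.00334). Its change from T to L did not pass (log2 0.50, 95% interval -0.03 to 1.04, edgeR adjusted p = 0.218).

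Gfra1, the co-receptor of Gdnf, followed the same order as its ligand. It measured 10.4, 8.59 and 12.2 TPM in the C libraries, 4.51, 3.91 and 4.39 in the T libraries, and 6.30, 6.02 and 4.36 in the L libraries. C lay above both other segments, and L replicate 3 fell within the range of T. Gfra1 fell 2.51-fold from C to T (log2 -1.33, SE 0.11, edgeR adjusted p = 3.28e-07) and 1.90-fold from C to L (log2 -0.93, SE 0.11, edgeR adjusted p = 1.04e-05). The rise from T to L of 1.318-fold (log2 0.40, SE 0.12, edgeR adjusted p = 0.0356) was lost when C replicate 1 or 3, T replicate 2 or 3, or L replicate 1 or 2 was left out (edgeR adjusted p = 0.0521, 0.0555, 0.0514, 0.136, 0.133 and 0.102). Over 19 alternatives its adjusted p ran from 0.0212 to 0.241.

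Gfra2, the co-receptor that prefers neurturin, was close to absent, with 3, 12 and 8 estimated counts in the C libraries, 2, 2 and 1 in the T libraries, and 5, 4 and 6 in the L libraries. Its levels were 0.231, 0.409 and 0.311 TPM in the C libraries, 0.081, 0.180 and 0.035 in the T libraries, and 0.210, 0.178 and 0.219 in the L libraries. C and T did not overlap in TPM, and their ratio of counts per library total was 4.015 (exact 95% counting interval 1.49 to 13.5). In the fit of every gene with a count, T was below C (log2 -2.0, SE 0.76, edgeR adjusted p = 0.0424), while L against C (edgeR adjusted p = 0.718) and L against T (0.226) did not pass.

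Further ligands and receptors of the same families were measured beside the 9 genes. Gfra3, the co-receptor of artemin, measured 1.94, 1.78 and 2.26 TPM in the C libraries, 0.490, 0.299 and 0.123 in the T libraries, and 0.730, 1.24 and 0.675 in the L libraries. It fell 7.20-fold from C to T (edgeR adjusted p = 3.98e-05) and 2.47-fold from C to L (edgeR adjusted p = 0.00463), and rose 2.91-fold from T to L (edgeR adjusted p = 0.04). Gfra3 reached 1 TPM in 4 libraries, those of C and L replicate 2. It thus passed the filter mainly through C, where it is high, and these values are a description. Ret, the kinase through which the GDNF family signals, averaged 2.62 ± 0.381 TPM in C (SD, n = 3), 2.56 ± 0.495 in T and 3.34 ± 0.259 in L, and passed in no comparison (edgeR adjusted p = 0.467, 0.261 and 0.156). Ntf5, which encodes neurotrophin-4, rose 1.785-fold from C to T (edgeR adjusted p = 0.0156), from 0.882 ± 0.0436 to 1.72 ± 0.273 TPM. It reached 1 TPM in 6 libraries, those of T and L, and so passed the filter without C. Nrtn (neurturin) lay between 1.14 and 2.87 TPM, Gfra4 between 4.94 and 10.9 and Gdf15 between 2.34 and 4.12 over the 9 libraries, with no call. Pspn (persephin) held 5 counts in L replicate 1 and none elsewhere, and Gfral had no count in any library.

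**Figure D3:**
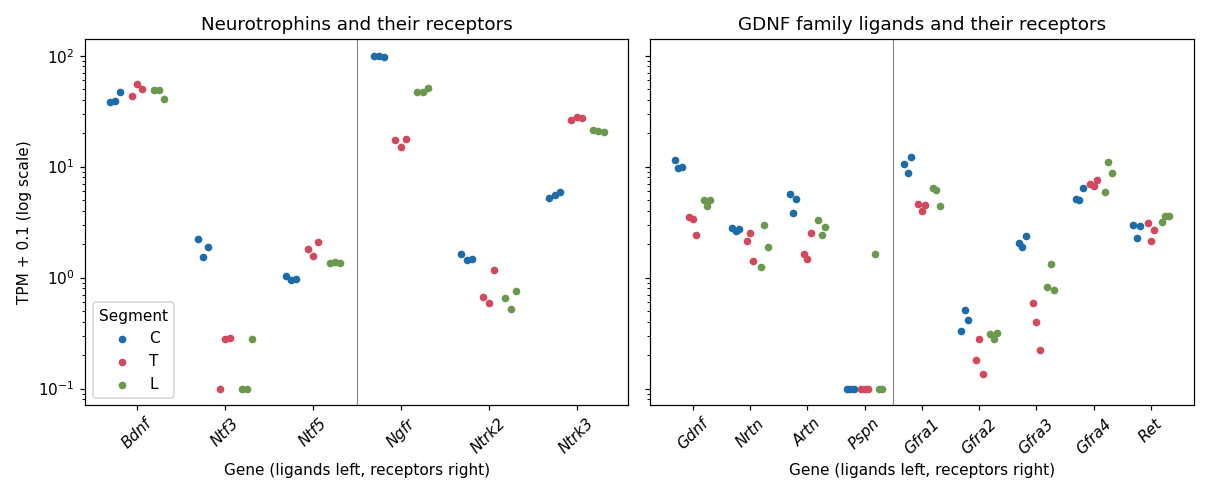
TPM + 0.1 on a log scale (y axis) of neurotrophins and GDNF family ligands, left of the vertical line in each panel, and of their receptors, right of it, with 1 point per library and segments by colour. Ngfr is the highest gene shown in C, and Pspn lies at the floor in 8 of the 9 libraries. The points of Ret lie slightly higher in L than in C and T, with no comparison called.

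Ratios of TPM within a library, which no scaling between libraries can move, put ligand and receptor side by side. Bdnf stood at 0.381 to 0.483 times the level of Ngfr in C, 2.51 to 3.71 times in T and 0.794 to 1.05 times in L. Gdnf to Gfra1 was 0.814 to 1.11 in C, 0.534 to 0.839 in T and 0.719 to 1.12 in L, with overlapping ranges. Ntrk3 exceeded Ntrk2 by 3.36 to 4.21 times in C, 25.2 to 57.5 times in T and 30.4 to 48.9 times in L. Gfra1 exceeded Ret by 3.60 to 4.37 times in C, 1.49 to 1.91 times in T and 1.25 to 2.07 times in L.

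Partners of p75 and the sortilin family were counted next, with 11 of 12 tested. T was below C for 5 and above for 2, L was below C for 3, and L against T gave 1 higher and 1 lower. The shares lower than C, 45.5% in T and 27.3% in L, stand beside 25.2% of all tested genes in both comparisons. Those higher than C, 18.2% in T and 0.0% in L, stand beside 25.8% and 24.4%. In L, 9.1% were higher and 9.1% lower than in T, beside 7.88% and 8.21%. The median log2 change of the list was 0.06 for T and 0.01 for L against C, beside 0.02 and 0.01 over all genes. Lingo1, which forms a complex with p75 and the Nogo receptor, fell 2.06-fold to T and 2.09-fold to L from 32.8 ± 0.538 TPM (edgeR adjusted p = 2.07e-07 and 2.23e-07). Bex3, a p75-binding protein, fell 1.99-fold and 1.86-fold from 543 ± 14.9 TPM (edgeR adjusted p = 3.14e-08 and 1.18e-07). Sorcs1, a sortilin-related receptor, fell 3.045-fold and 2.00-fold (edgeR adjusted p = 8.73e-05 and 0.00281). It reached 1 TPM in 5 libraries, those of C and L replicates 1 and 2. Tnfrsf19 (TROY), a relative of p75, rose 2.56-fold from C to T and fell 2.31-fold from T to L (edgeR adjusted p = 9.64e-06 and 0.000128), standing at 9.88 ± 0.673 TPM in T. Sort1 (sortilin), which binds proneurotrophins together with p75, rose 1.24-fold from T to L, to 25.1 ± 0.462 TPM (edgeR adjusted p = 0.00314).

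The alternative GDNF receptors on the list were both far more abundant than Gfra1. Both were lower in T and in L than in C, as were 25.2% of all tested genes in each comparison. Ncam1 (neural cell adhesion molecule) stood at 157.5 ± 4.97, 62.3 ± 3.16 and 92.0 ± 3.47 TPM in C, T and L (SD, n = 3), a 2.91-fold fall to T and a 1.85-fold fall to L (edgeR adjusted p = 8.39e-11 and 2.32e-08), with a rise of 1.57-fold from T to L (edgeR adjusted p = 2.5e-06). Sdc3 (syndecan-3) stood at 166 ± 1.07, 90.1 ± 4.98 and 89.7 ± 2.16 TPM, and fell 2.00-fold to T and 1.98-fold to L (edgeR adjusted p = 2.32e-08 and 3.56e-08).

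Proteases that cleave proneurotrophins, and the inhibitors of those proteases, moved in both directions, with 9 of 14 tested. T was below C for 5 and above for 3, L was below C for 4 and above for 3, and L was above T for 3 and below for 2. In T, 55.6% were lower and 33.3% higher than in C, beside 25.2% and 25.8% of all tested genes. In L, 44.4% were lower and 33.3% higher than in C, beside 25.2% and 24.4%, and 33.3% were higher and 22.2% lower than in T, beside 7.88% and 8.21%. Plau, the urokinase-type activator, fell 4.00-fold and 3.04-fold to T and L (edgeR adjusted p = 2.75e-09 and 2.8e-08), with L 1.317-fold above T (edgeR adjusted p = 0.031). Among proprotein convertases, Pcsk5 rose 4.265-fold from C to T and fell 1.71-fold from T to L (edgeR adjusted p = 3.82e-11 and 2.33e-06). Pcsk6 fell 2.405-fold from C to T, 5.80-fold from C to L and 2.41-fold from T to L (edgeR adjusted p = 7.79e-08, 2.83e-10 and 1.44e-06). Serpini1 (neuroserpin) rose 2.57-fold from C to L, to 6.53 ± 1.35 TPM (edgeR adjusted p = 1.93e-05).

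Adaptors and effectors of Trk and Ret were tested for 17 of 18. T was below C for 5 and above for 3, with 9 not passing, and L was below C for 5 and above for 1, with 11 not passing. The share lower, 29.4% in both, stands near the 25.2% of all tested genes. The shares higher, 17.6% in T and 5.9% in L, stand beside 25.8% and 24.4%. Of the 17, Sh2b3 alone differed between T and L (5.9%, beside 16.1% of all tested genes). This adaptor fell 1.52-fold from C to T and rose 1.204-fold from T to L (edgeR adjusted p = 4.59e-06 and 0.0139). Shc4, an adaptor of receptor tyrosine kinases, fell 5.05-fold to T and 3.88-fold to L from 5.75 ± 0.207 TPM (edgeR adjusted p = 2.44e-08 and 1.53e-07). Shc2 fell 2.21-fold and 2.56-fold (edgeR adjusted p = 1.3e-06 and 3.55e-07). Gab1, a docking protein, rose 1.62-fold and 1.53-fold (edgeR adjusted p = 5.51e-06 and 2.18e-05), and its relative Gab2 fell 1.37-fold from C to L (edgeR adjusted p = 0.000366).

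All 9 factors and receptors of other neurotrophic families were tested. T was below C for 7 and above for 1 (77.8% and 11.1%, against 25.2% and 25.8% of all tested genes). L was below C for 6 and above for 1 (66.7% and 11.1%, against 25.2% and 24.4%). L was above T for 2 and below for 2 (22.2% each way, against 7.88% and 8.21%). The median log2 change was -0.85 to T and -0.86 to L. Nrg1 (neuregulin-1, a growth factor for Schwann cells) fell 5.05-fold from C to T and rose 2.79-fold from T to L (edgeR adjusted p = 8.13e-09 and 6.71e-06), at 12.95 ± 1.81, 2.64 ± 0.447 and 7.72 ± 1.89 TPM in C, T and L. Cntf (ciliary neurotrophic factor) fell 4.62-fold to T and 3.46-fold to L (edgeR adjusted p = 2.51e-05 and 0.000141), and its receptor Cntfr fell 1.84-fold to T (edgeR adjusted p = 0.021). Mdk (midkine) fell 3.31-fold and 3.415-fold (edgeR adjusted p = 9.89e-07 and 1.05e-06). Ptn (pleiotrophin) fell 4.43-fold from C to L and 2.46-fold from T to L (edgeR adjusted p = 5.91e-10 and 5.2e-07). Clcf1 (cardiotrophin-like cytokine factor 1) fell 1.815-fold from C to L and 1.61-fold from T to L (edgeR adjusted p = 2.51e-06 and 8.7e-05), and Manf rose 1.19-fold from T to L (edgeR adjusted p = 0.0144).

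**Figure D4:**
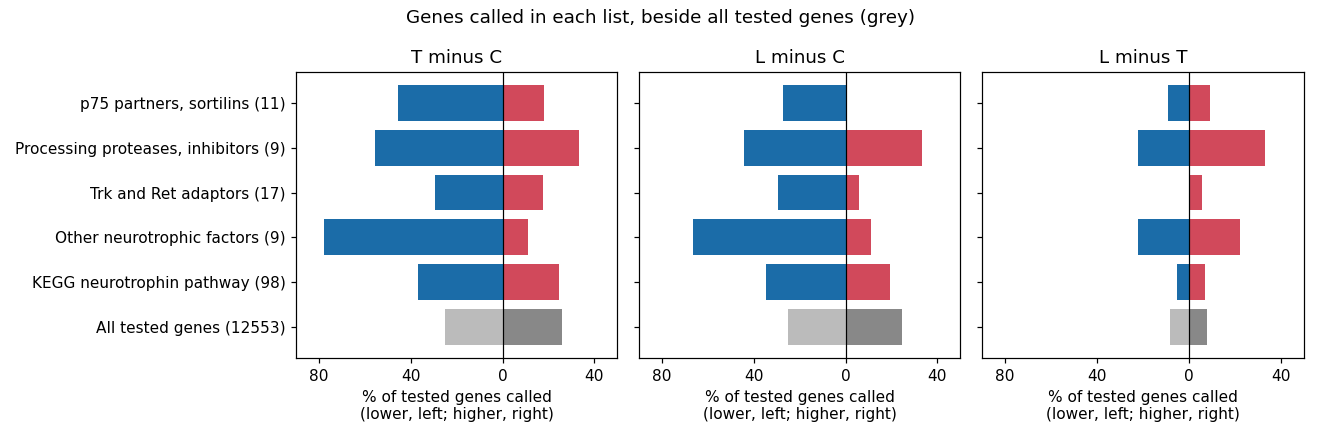
Share of tested genes called lower (left) or higher (right) in each list, in percent of the tested genes whose number stands in brackets, for the 3 comparisons, with all 12553 tested genes in grey. The KEGG pathway list was added after the data were seen. The list of other neurotrophic factors reaches 77.8% lower for T against C, beside 25.2% of all genes.

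Markers of Schwann cells, which also carry p75, were measured beside Ngfr. The list has 10 genes, of which 8 were tested. They summed to 82.8 to 92.5 TPM in C, 37.1 to 42.2 in T and 55.9 to 57.9 in L. T was below C for 6 and above for 2, L was below C for 6 and above for 2, and L was above T for 6 and below for 1. Of all tested genes, 25.2% were lower and 25.8% higher in T than in C, and 25.2% and 24.4% in L than in C. Between T and L, 7.88% of all tested genes were higher and 8.21% lower in L. Sox10, a transcription factor of the Schwann lineage, stood at 16.5 ± 1.01, 2.13 ± 0.654 and 7.25 ± 0.215 TPM in C, T and L, the same order of means as Ngfr, Gdnf, Artn, Gfra1 and Gfra3, and Erbb3, the neuregulin receptor, at 11.7 ± 1.12, 1.51 ± 0.277 and 5.19 ± 0.490. S100b ran against that order, at 6.185 ± 0.547, 19.0 ± 1.28 and 10.2 ± 0.960 TPM, and Prx rose 1.44-fold from C to T. Of the rest of the list, Mbp, Foxd3 and Cdh19 were highest in C and lowest in T, and Ncmap stayed under 1 TPM. The part of such cells in the levels of the 9 genes was not tested.

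**Figure D5:**
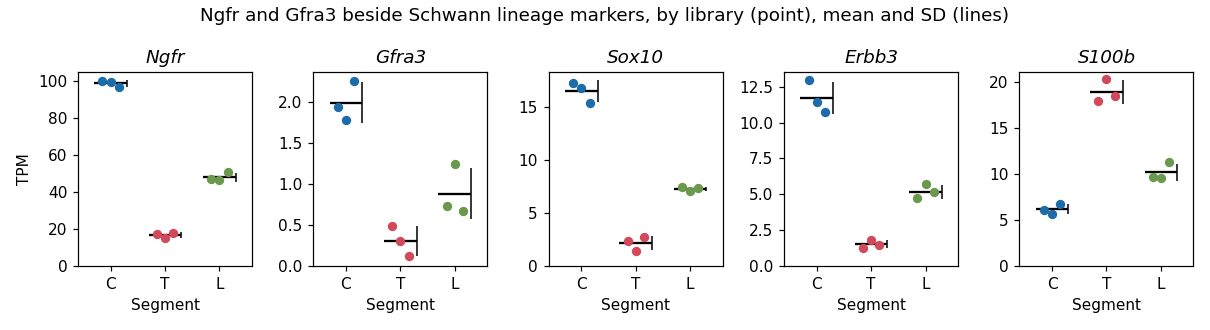
TPM (y axis, from 0) of Ngfr and Gfra3 and of 3 of the 10 Schwann cell markers, picked after their values were seen, with 1 point per library and lines for the mean and SD. Sox10 and Erbb3 are highest in C and lowest in T, as Ngfr is, and S100b is highest in T.

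Other marker lists were summed in the same way. The neuronal, endothelial, mural cell and dura sums stood in the order C, L, T, as the Schwann cell sums did. Those of astrocyte, macrophage, arachnoid and pia markers stood in other orders. Neuronal markers summed to 165 to 173 TPM in C, 22.7 to 27.1 in T and 30.4 to 34.5 in L, almost all of it from Stmn2 (162 ± 3.95 TPM in C) and Nefm. Of this pair, the only tested ones of the 8, Stmn2 fell 13.04-fold from C to T and Nefm rose 1.36-fold (edgeR adjusted p = 1.03e-12 and 0.0156). Rbfox3 and Snap25, which define mature neurons, averaged 0.0473 ± 0.0502 and 0.303 ± 0.123 TPM in C and were at 0 in every T and L library. Endothelial markers summed to 89.6 to 99.3 TPM in C, 47.75 to 48.15 in T and 58.0 to 61.8 in L, with Cldn5 at 0 in every library. Most of that sum was Cdh5, at 83.6, 43.1 and 54.1 TPM on average in C, T and L. Tek ran the other way, at 2.13, 4.33 and 4.455 TPM, and Pecam1 and Tie1 stayed under 1 TPM. Astrocyte markers, led by Gfap, summed to 98.6 to 109 TPM in C, 149 to 153 in T and 30.1 to 31.8 in L. Gfap, Aqp4 and Slc1a2 were higher in T than in C. Aldh1l1 and Slc1a3 were lower, at 5.93 against 11.7 TPM and 0.762 against 1.45 TPM. Macrophage markers summed to 22.5 to 26.7, 30.4 to 34.0 and 12.45 to 14.6 TPM. Mural cell markers summed to 365 to 379, 288 to 302.5 and 331 to 343 TPM, with Higd1b at 0 throughout. Arachnoid markers, led by Cldn11, summed to 1.13 to 1.70 TPM in C, 114 to 122 in T and 39.3 to 45.3 in L. Cldn11 and Cdh1 were highest in T, while Dpp4 was higher in L than in T (2.32 against 1.17 TPM). Dura markers summed to 1835 to 1983 TPM in C, 727 to 781 in T and 841 to 927 in L. That order is the order of Mgp, while the other 3 of the list (Fxyd5, Foxp1 and Alpl) rose from C to T, by 1.54-fold, 2.35-fold and 3.06-fold (edgeR adjusted p = 3.28e-06, 1.95e-09 and 2.27e-05). Pia markers other than Ngfr (S100a6 and Lama1) summed to 5047 to 5425 TPM in C, 3799 to 4562 in T and 3144 to 3784 in L. Their part in the results was likewise not tested.

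The tested genes whose log2(TPM + 1) tracked a member most closely over the 9 libraries were listed as a description, up to 2 per member. For Ngfr these were Igfbp7 (r = 0.9991) and Cnn1 (r = 0.9981), at 1241, 315 and 701 TPM and 544, 111 and 273 TPM in C, T and L. For Ntrk3 they were Scara5 (r = 0.999) and Hoxa7 (r = 0.9976), and for Gdnf H6pd (r = 0.9943) and Tubb4a (r = 0.9938). For Ntf3 they were Ldhb (0.99) and Mapk10 (0.9881), for Artn Irak2 (0.9804) and Cpne2 (0.9664), for Gfra1 Ext1 (0.9849) and Mocos (0.973), for Ntrk2 Sema6a (0.9828) and Ngef (0.977), and for Bdnf Mob1b (0.9765), all as Pearson's r. The points share 3 segments and their libraries, so high values are common among genes that differ between segments.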

How the data were processed

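RNA-seq of 9 mouse libraries, 3 per segment, was read from the authors' table of 22013 genes. Per the file headers, it holds a deposited estimated count and a deposited TPM value per gene and library. TPM columns sum to the same total. Tools named in the submitters' processing notes, with no role or order, were HISAT2 2.2.1 (alignment software), StringTie 2.1.4, Trimmomatic 0.39, FastQC 0.11.9 and DESeq2 1.32.0, and both GRCh38 and GRCm39 stand there as builds. The sources used here do not give the annotation or the use of strand, although the labels' protocols name a library kit that keeps strand. Of the estimated counts, 92.7% were exactly whole, and all were rounded to whole numbers. Reads of near-identical or overlapping genes could have been split.

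The 12553 genes at 1 TPM or more in 3 or more libraries entered edgeR 4.0.16 (R 4.3.3): TMM scaling, segment as the only term, all 9 libraries in 1 quasi-likelihood fit, two-sided tests, Benjamini-Hochberg adjustment over all tested genes, threshold 0.05. Alternatives used limma 3.58.1 on log2(TPM + 1) and log2(TPM + 0.1), DESeq2 1.42.0, other scalings and filters, the replicate number as a block and each library left out. The procedure was tested on simulated data. Standard errors come from the fold change and its F statistic.

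The 9 genes and the lists were chosen with earlier results of these data known. Within a list, up to 4 called genes with the largest change and 1 TPM or more on average in the higher segment were named per comparison, beside family ligands and receptors. Some genes that this rule names are not reported here. Likeness was ranked among tested genes without predicted or clone-based symbols. Promoters come from RefSeq (GRCm38.p6) and overlaps from GENCODE M21.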

Additional observations from a re-analysis of the deposited data

How the results depend on the processing

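Over 19 alternatives to the fit, every called change of Ngfr, Gdnf, Artn, Ntf3, Ntrk2 and Ntrk3 kept its direction and its call, and Bdnf was called in none, with a log2 change from 0.05 to 0.26 for T against C. The rise of Gfra1 from T to L was lost in 11 of them: the 6 libraries named above, limma on log2(TPM + 1), log2(TPM + 0.1) and median-centred values (adjusted p = 0.241, 0.232 and 0.2), the fit of only T and L (0.0725) and the replicate block (0.0531). The cause was not tested. Deviations from the segment mean correlated at -0.2 to 0.346 between same-numbered libraries of different segments, and at -0.394 to 0.419 between the others. With 3 libraries per segment, these values cannot tell whether equal numbers share an animal, a culture or a batch. The replicate block gave 6252, 6084 and 1892 called genes for T against C, L against C and L against T. The main fit gave 6408, 6231 and 2019, and the block changed no call of a member but that of Gfra1. Leaving out a library gave 5449 to 6959, 5220 to 6890 and 1413 to 2437 called genes, and 7, 7 and 3 to 4 called members. On log2(TPM + 1), the median gene rose by 0.13 from C to T, and 4110 genes were higher and 2214 lower, against 3240 and 3168 with edgeR; from C to L these were 3737 and 2246, against 3066 and 3165. With 0.1 in place of 1, they were 4094 and 2191 for T and 3746 and 2229 for L. The fitted change of Ntf3 from C to T ran from log2 -4.23 to -1.31, the latter with limma on log2(TPM + 1), and rests on 4 counts in T. That from C to L rests on 2 counts, both in L replicate 3, without which no fitted change is given. Ratios of mean levels taken from CPM in place of TPM moved beyond the spread for Ntrk3 (4.21, 3.39 and 0.805) and for Ngfr in L against C (0.453), in the same direction. Depth limits what can be said of Ntf3, Ntrk2 and Gfra2.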

Other observations

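The deposited annotation places 106 genes in the KEGG neurotrophin signaling pathway, a list taken up after the data were seen, and 98 of them were tested. From C to T, 36 fell and 24 rose (36.7% and 24.5%, against 25.2% and 25.8% of all tested genes). From C to L, 34 fell and 19 rose (34.7% and 19.4%, against 25.2% and 24.4%). From T to L, 5 fell and 7 rose (5.1% and 7.1%, against 8.21% and 7.88%). Without the 9 genes and the other family ligands and receptors, 32 of 91 fell (35.2%) and 22 rose (24.2%) from C to T. Their median log2 change was -0.09.

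The number of reads behind 1 TPM, relative to the median gene, reflects the transcript length that the authors' quantification gave a gene. For Ngfr and Gdnf it varied by 0.5% between the lowest and the highest library, and for Bdnf by 1.1%. It varied by 41.9% for Gfra1, where the median over 10523 genes with at least 50 counts in each library was 3.86% and the 90th percentile 26.5%. For Artn and Ntrk2, which fall under that count in 6 and 8 of the 9 libraries, it varied by 17.7% and 42.2%. For Ntrk3 it was 1.90 to 2.00 in C, 1.75 to 1.85 in T and 1.82 to 1.94 in L, so C and T did not overlap.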
